A study of Mytilus galloprovincialis with 16 samples.

Results

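Spawning female mussels (stage 4, sampled in March) were set directly against ripe females (stage 3, sampled in February) on 4 of the 16 dual-color cDNA arrays of the series, and only these 4 arrays are described here. They were taken by their titles, which name stage 4 over stage 3 and replicates 1 to 4. *Mytilus galloprovincialis*, the Mediterranean mussel, keeps its gonad inside the mantle, and each array compared mantle RNA of a stage 4 animal with that of a stage 3 animal from the same lagoon in Tunisia. Both groups were untreated wild females, each RNA came from a single individual, and neither age nor the animal behind each array is given in the labels. Stage 4 RNA was labelled with Cy5 on replicates 1 and 3 and with Cy3 on replicates 2 and 4, with stage 3 RNA in the other dye. Each stage was sampled in a month of its own, so stage and month cannot be told apart.

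In a ripe female the gonad tubules of the mantle are filled with grown oocytes, which are shed into the water at spawning. An oocyte carries stores of ribosomes, mitochondria and maternal mRNA, and it is wrapped in a vitelline envelope built from zona pellucida domain proteins. Around the tubules lie connective tissue, muscle fibres and ciliated epithelium. The arrays measured bulk mantle, so fewer cells of a type and less RNA per cell cannot be told apart.

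Each of the 1920 probes, cDNA clones spotted as 2 spots per array, gave a log2 ratio of stage 4 over stage 3. A value of 1 means a relative mRNA abundance 2-fold higher at stage 4, and a value of -1 means 2-fold lower. Between 75.5% and 82.3% of probe spots in the stage 4 channels, and between 68.9% and 82.0% in the stage 3 channels, exceeded 95% of the empty spots. No spot was saturated, and the number of arrays limits the precision. Across all probes, the log2 ratios of any 2 arrays correlated with an r of 0.404 to 0.644, lowest between replicates 1 and 4, as a description of points that share arrays. Gene names were had for 208 probes, all from the study's own list of changed transcripts in female mantle, so counts among named genes are no independent evidence of change.

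A transcript was called when its adjusted p in limma (Benjamini-Hochberg, over all probes) was under 0.05 and its log odds of differing, B, exceeded 0. By this rule 86 of 1920 probes (4.48%) differed between stage 4 and stage 3, 44 higher (2.29%) and 42 lower (2.19%) at stage 4. The median log2 ratio was 0.84 among those higher, -0.74 among those lower and -0.02 over all probes. A difference of at least 2-fold was seen for 11 of the probes called higher and for 10 of those called lower. Each of the 86 had the same sign on the 4 arrays, which held for 610 of all probes (31.8%), and each was brighter than the empty spots in every channel. A probe counted as brighter when 1 or both of its spots exceeded 95% of the empty spots. With 3 arrays the counts were 22 higher and 23 lower without replicate 1, 27 and 28 without replicate 2, 28 and 25 without replicate 3, and 49 and 31 without replicate 4. When arrays were centred on their median instead of normalized by loess, the split was 71 higher and 11 lower (86.6% higher, against 51.2% here). The weakest called probe had a B of 0.04, and the strongest of those that passed on adjusted p alone had a B of -0.02.

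**Figure D1:**
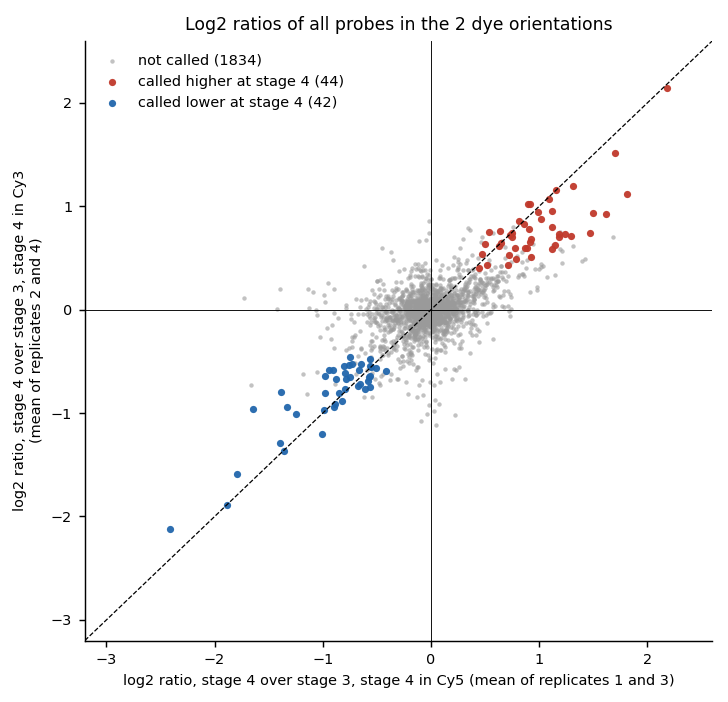
Each point is a probe, with its log2 ratio of stage 4 over stage 3 averaged over the 2 arrays with stage 4 in Cy5 (x axis) and over the 2 arrays with stage 4 in Cy3 (y axis); the dashed line marks equal values. The 44 probes called higher at stage 4 lie above 0 on both axes and the 42 called lower lie below 0 on both.

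Since calls were made over these same arrays, the shared sign of the called probes in both dye orientations follows in part from the rule. Probes on the study's list, described or not, numbered 368, of which 69 were called (18.8%), 9.24% higher and 9.51% lower. Of the called probes, 46 had a description (22.1% of the 208 described probes), 24 of them higher and 22 lower. Ribosomal proteins made up 21 of the 24, and 44 of the 208 described probes. Mitochondrially encoded transcripts made up 7 of the 22, and 19 of the 208. The shares of described probes given below include the members of each list themselves, so they are no outside background.

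Cytosolic ribosomal proteins, the protein parts of the machinery that translates mRNA, had higher relative mRNA abundance at stage 4. Of 44 probes, 21 were called higher and 0 lower, beside 2.29% called higher over all probes and 11.5% of the described ones. Their median log2 ratio was 0.72 (-0.02 over all probes), and it lay at 0.76, 0.61, 0.97 and 0.58 on replicates 1 to 4. On all 4 arrays, 36 of the 44 were higher and 1 was lower. The list median was 0.86 where stage 4 was in Cy5 and 0.60 where it was in Cy3, so the direction was shared and the size was not. Without replicate 1 the list had 13 members called and without replicate 2 it had 14, and its median stayed between 0.65 and 0.78 whichever array was left out. No background correction left 12 called, plain subtraction 11, and print-tip loess 13, at medians of 0.48, 0.84 and 0.56.

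Ribosomal protein L15 (AJ624925), of the large subunit, had the highest value of the list. Its normalized log2 intensities were 10.02, 11.44, 10.68 and 10.35 in the stage 4 channels of replicates 1 to 4, against 8.70, 9.92, 8.59 and 8.84 in the stage 3 channels. Every stage 4 channel was brighter than every stage 3 channel. Here and below, such separation is described only for probes with large ratios, so it follows in part from that choice. Its share over all probes was not counted. The log2 ratios were 1.32, 1.51, 2.09 and 1.51, a mean of 1.61 (SE 0.13, n = 4 arrays), or 3.05-fold, with an adjusted p of 0.00163. L15 was called in each fit with an array left out.

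Next in order were S27a (AJ625324), made in cells as a fusion with ubiquitin, at 1.25 (SE 0.10), and the qm-like protein (AJ625546), QM being another name of L10, at 1.22 (SE 0.14). A further probe described as L10 (AJ625604) gave 0.89 (SE 0.13), and the ubiquitin A-52 fusion product (AJ624454), which releases ubiquitin and L40, gave 0.96 (SE 0.11). L31 (AJ624109), L32 (AJ625800) and L13a (AJ624488) had log2 ratios of 1.11, 1.00 and 0.97, and S10 (AJ625179), P0 (AJ625204), L8 (AJ624698) and L23 (AJ623349) of 0.95, 0.84, 0.84 and 0.84. These 11 probes all passed, with adjusted p between 0.0016 and 0.0114. Their spread between arrays was uneven. P0, of the stalk on which translation factors act, varied little, with 0.84, 0.88, 0.88 and 0.77 on replicates 1 to 4. L31, by contrast, gave 1.32 and 1.61 on the arrays with stage 4 in Cy5 and 0.79 and 0.70 on those with it in Cy3. L31, L32 and L10 each lost their call without replicate 1, 2 or 3, qm-like without replicate 1, and the A-52 fusion without replicate 3. The other 6 kept theirs whichever array was left out.

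The remaining 9 called members, L7a, L18a, L14, L18, S5, S14, S16, S20 and S23, lay between 0.62 and 0.75. S16 and S20 kept their calls with any array left out, and the other 7 lost theirs without 1 or more arrays. The highest uncalled member was L9 (AJ516361), at 1.60, 0.71, 1.76 and 0.70 on replicates 1 to 4 (mean 1.19, SE 0.21, adjusted p = 0.0183), again with the higher values where stage 4 was in Cy5.

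By subunit, 14 of 26 large subunit probes and 7 of 18 small subunit probes were called higher. The share of described probes called higher, 11.5%, is made up largely of these same probes. The medians were 0.84 for the large and 0.69 for the small subunit, and the difference between subunits was not tested. A few members stood apart from the rest. S3a (AJ626403) was negative on every array, at -0.33, -0.53, -0.43 and -0.83, a mean of -0.53 with an adjusted p of 0.0231 that did not reach a B above 0. Where 2 probes carried the same description they ran the same way: S14 at 0.69 (AJ625370, called) and 0.69 (AJ623890, not called), L22 at 0.56 and 0.47 (neither called), and S20 at 0.70 (AJ624829, called) and 0.23 (AJ625317, not called). The called S14 probe kept its call only when replicate 2 was the array left out.

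Translation initiation and elongation factors, which load and move ribosomes along mRNA, did not share this pattern. In limma 0 of 11 probes were called in either direction, beside 4.48% over all probes and 22.1% of the described ones. For 3 of the 11, the unadjusted p in limma was under 0.05. Their log2 ratios ran from -0.25 for elongation factor 2 (AJ624593) to 0.13 for initiation factor 5A (AJ516752), with a median of -0.08, which became 0.15 under median centring. The 2 probes of elongation factor-1 alpha, which brings aminoacyl-tRNA to the ribosome, lay at -0.22 (AJ625505) and -0.09 (AJ625361), and a further probe described as elongation factor 1 alpha 1 (AJ624922) at -0.15. Their single arrays lay between -0.43 and 0.03.

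**Figure D2:**
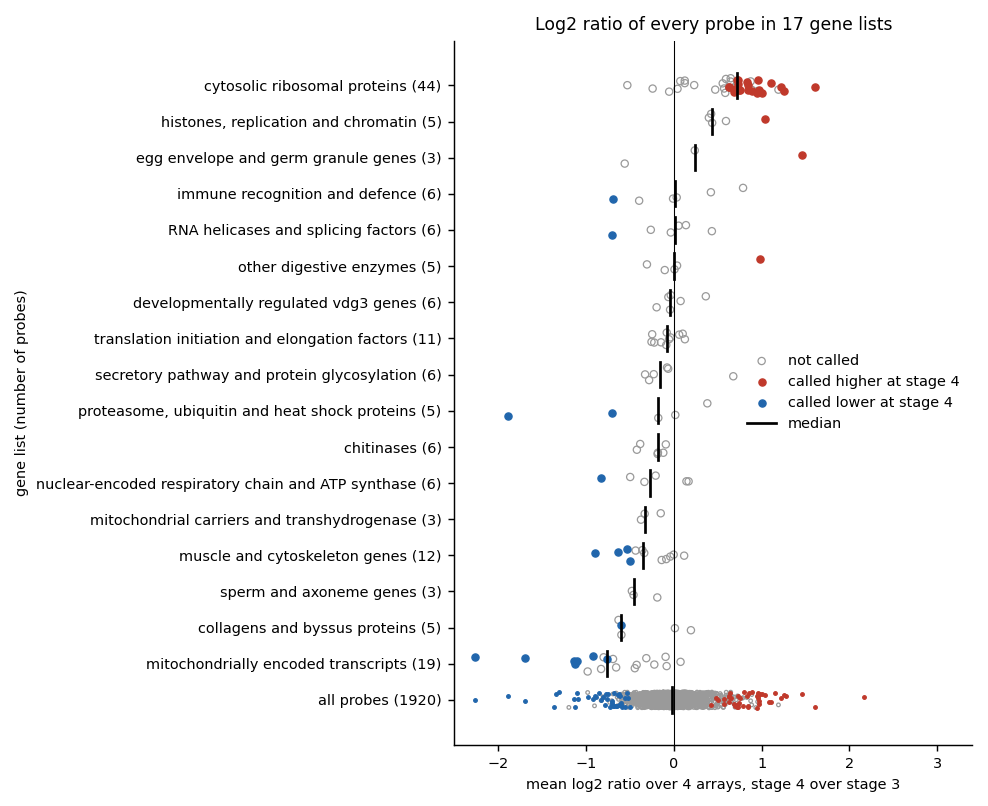
Mean log2 ratio over 4 arrays (x axis, stage 4 over stage 3) of every probe in 17 gene lists and of all 1920 probes (rows, with the number of probes); filled points were called, open points were not, and the vertical bars are medians. Cytosolic ribosomal proteins have the highest list median (0.72) and mitochondrially encoded transcripts the lowest (-0.77).

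Mitochondrially encoded transcripts were lower at stage 4. The mitochondrial genome encodes a small set of respiratory chain subunits, such as NADH dehydrogenase (complex I), cytochrome b (complex III) and cytochrome oxidase (complex IV) subunits. Of 19 probes, 7 were called lower and 0 higher, beside 2.19% called lower over all probes and 10.6% of the described ones. The median was -0.77 and the range -2.26 to 0.08, and 14 of the 19 were lower on all 4 arrays. List medians were -0.97, -0.62, -0.67 and -0.60 on replicates 1 to 4. Under median centring 3 were called lower, at a median of -0.39, and under print-tip loess 4, at a median of -0.43.

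Cytochrome oxidase subunit I (AJ623880) had the lowest log2 ratio of all 1920 probes. Its normalized log2 intensities were 8.05, 8.84, 8.89 and 8.86 in the stage 4 channels of replicates 1 to 4, against 11.04, 11.57, 10.72 and 10.37 in the stage 3 channels. No stage 4 channel reached the dimmest stage 3 channel. The log2 ratios of -2.99, -2.73, -1.83 and -1.51 gave a mean of -2.26 (SE 0.25), 4.81-fold lower at stage 4, with an adjusted p of 0.00499. Replicates 1 and 2 showed the larger differences, and these have opposite dyes.

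NADH dehydrogenase subunit 5 (AJ623584), a proton-pumping subunit of complex I, is also the transcript for which the study designed a Q-PCR assay in this tissue. Its oligonucleotides, printed 5′ to 3′ to identify the transcript, are:
ND5 TaqMan probe: acccttgtcacagtcttcttaacccacg
ND5 sense primer: cttattgcacctattcttaccggc
ND5 antisense primer: ttcgtctgtaaactgtccaacaaa
On the arrays its stage 4 channels had normalized log2 intensities of 6.01, 6.29, 6.21 and 6.44, against 8.16, 7.99, 7.66 and 7.91 in the stage 3 channels, with no overlap. The stage 4 values were dim, though brighter than the empty spots on each array. The offset of 50 added to every intensity makes ratios of dim probes smaller. The log2 ratios were -2.15, -1.71, -1.45 and -1.47, with a mean of -1.69 (SE 0.13, adjusted p = 0.0016). The difference was 3.23-fold and was called whichever array was left out.

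Cytochrome b was carried by 2 probes. AJ624584 was called, at -1.71, -1.19, -0.96 and -0.69 on replicates 1 to 4 (mean -1.14, SE 0.16, adjusted p = 0.0105), and it lost the call without replicate 2 or 3, with no background correction (-0.83) and under median centring (-0.60). AJ624838 averaged -0.69 (SE 0.13), lower on each array, with an adjusted p of 0.026 and no call.

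The remaining 15 probes are clones annotated only as the mitochondrial genome, with no gene given. Their mean log2 ratios ran from -1.13 to 0.08 with a median of -0.66, 10 were lower on all 4 arrays, and 4 were called lower: Myt01-019B06 at -1.13 (SE 0.09), Myt01-019B07 at -1.10 (SE 0.11), Myt01-019A06 at -0.92 (SE 0.07) and Myt01-019B09 at -0.77 (SE 0.10). Myt01-019B09 lost its call without replicate 3. At the other end, Myt01-019A04, Myt01-019B12 and Myt01-019B01 had means of 0.08, -0.08 and -0.09, within the spread of their arrays. Clones of a single small genome can share sequence and are not independent. They also share a place: all came from plate 19 and were printed in 4 of 16 blocks of the array. The other 81 clones of that plate, taken whatever their block, had a median log2 ratio of -0.05. The 1 of them called lower was Myt01-019A03, the collagen alpha-1 chain given below. Under print-tip loess, which is fitted within each block, the median of the whole mitochondrial list was -0.43, against -0.77 here. The part of plate or block in these values was not tested further.

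Nuclear genes of the same respiratory chain were measured by 6 probes, of which 1 was called lower and 0 higher, beside 2.19% called lower over all probes and 10.6% of the described ones. The called probe was an ATP synthase beta subunit (AJ625661), the catalytic subunit of the enzyme, at -0.88, -1.03, -0.82 and -0.59 (mean -0.83, SE 0.09, adjusted p = 0.00416), and it kept the call with any array left out. A second ATP synthase beta probe (AJ624752) averaged -0.21 with 2 arrays on each side of 0 and did not pass. Cytochrome c oxidase subunit IV (AJ624079), a nuclear-encoded partner of subunit I, was at 0.17 (adjusted p = 0.297). This subunit IV probe was dim, where the offset makes ratios smaller. Its normalized log2 intensities lay between 6.39 and 6.97 at stage 4 and between 6.38 and 6.68 at stage 3. The median of the 6 was -0.27, and it became 0.20 under median centring, where none was called, the ATP synthase beta probe being at -0.42 there and at -0.47, also without a call, with no background correction. Among 3 probes for mitochondrial carriers and transhydrogenase, which move phosphate, adenine nucleotides and reducing power across the inner membrane, 0 were called in limma, 2 had an unadjusted p under 0.05, and the log2 ratios lay between -0.37 and -0.15. The share called in either direction was 4.48% over all probes and 22.1% of the described ones.

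**Figure D3:**
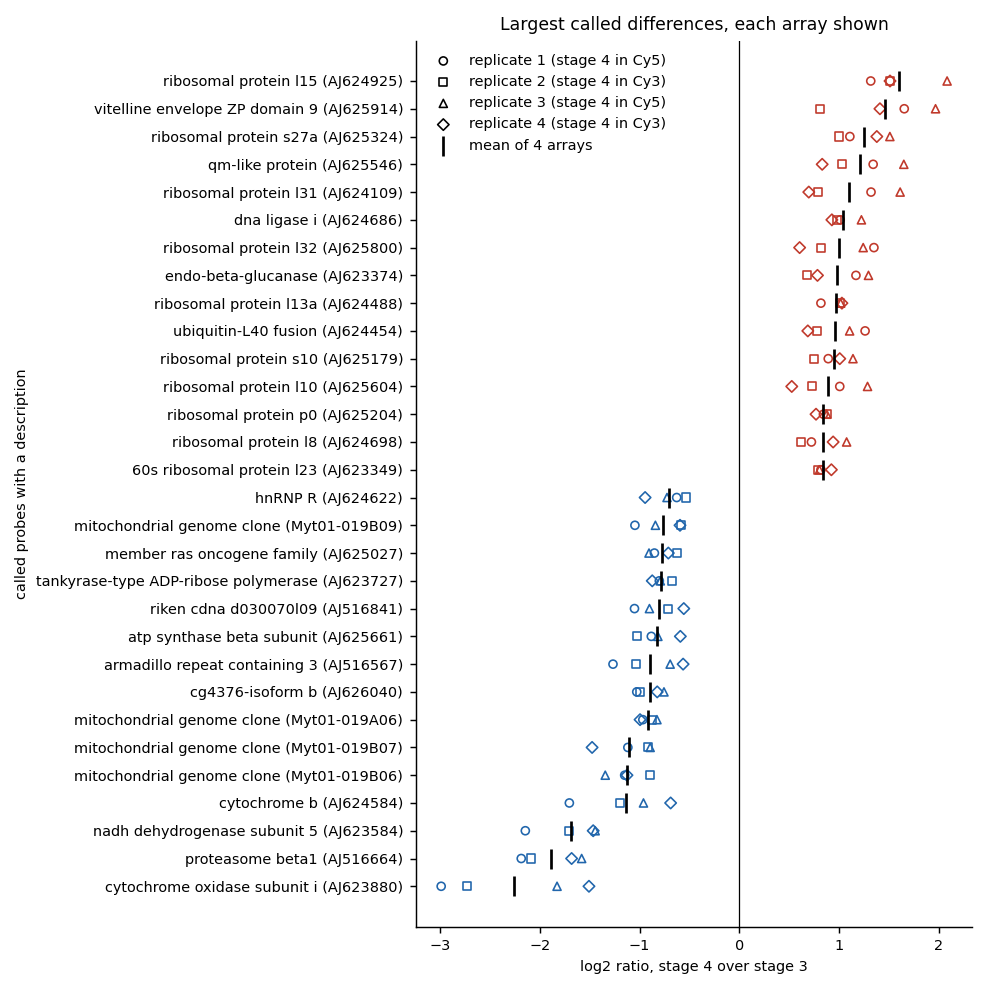
Log2 ratio of stage 4 over stage 3 (x axis) on each of 4 arrays for the 15 called probes with the highest and the 15 with the lowest mean among those with a description (rows); open symbols are arrays and vertical bars their means. Red probes were higher and blue probes lower at stage 4. The same sign on all 4 arrays was required for a place here, so no array of a probe crosses 0.

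Protein turnover genes, with 2 of 5 probes called lower (10.6% of described probes were), included the lowest log2 ratio outside the mitochondrial genome. Proteasome beta1 (AJ516664), a core subunit of the complex that degrades ubiquitin-tagged proteins, had normalized log2 intensities of 8.23, 8.73, 8.35 and 8.07 in the stage 4 channels, against 10.41, 10.82, 9.93 and 9.75 in the stage 3 channels. All stage 4 channels were dimmer than all stage 3 channels. The log2 ratios were -2.19, -2.09, -1.58 and -1.68 (mean -1.89, SE 0.12, adjusted p = 0.0016), 3.69-fold lower at stage 4. A ubiquitin probe (AJ623726), of the tag itself, averaged -0.70 (SE 0.10, adjusted p = 0.00973) and lost its call without replicate 1, 3 or 4, with plain subtraction, with a dye term and under median centring, where it was at -0.16. The ubiquitin fusions to S27a and L40 given above thus lay on the opposite side. Heat shock proteins, chaperones that fold other proteins, were not called. HSP70 (AJ624615) was at -0.18, and the 2 probes of HSP90 at 0.02 (AJ625621) and 0.38 (AJ625915). AJ625915 had 0.91, 0.19, 0.36 and 0.06 on replicates 1 to 4. HSP70 was dim, with normalized log2 intensities between 6.46 and 6.57 at stage 4 and between 6.46 and 6.94 at stage 3. So was AJ625621, between 6.46 and 7.04 at stage 4 and between 6.50 and 6.90 at stage 3. The offset added to every intensity makes ratios of dim probes smaller.

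Of 3 egg and germ line probes, 1 was called higher, beside 11.5% of the described probes. Vitelline envelope zona pellucida domain 9 (AJ625914) was higher at stage 4. Its normalized log2 intensities were 12.37, 11.58, 12.10 and 11.71 in the stage 4 channels, against 10.72, 10.76, 10.13 and 10.30 in the stage 3 channels, with no overlap. The log2 ratios of 1.66, 0.81, 1.97 and 1.41 gave a mean of 1.46 (SE 0.18, adjusted p = 0.00604), 2.76-fold, and the call was lost without replicate 1. Under median centring, no background correction and print-tip loess this probe was not called. A second vitelline envelope zona pellucida probe (AJ625872) averaged 0.24 (adjusted p = 0.271), and a P-granule associated protein (AJ623653), named after germ granules of *Caenorhabditis elegans*, averaged -0.56 without reaching the call (adjusted p = 0.0291). All 3 probes were brighter than the empty spots in every channel of both stages. The 3 sperm and axoneme probes were brighter than the empty spots too, so that measure does not separate the markers of the sexes. Their log2 ratios were -0.48, -0.46 and -0.19. Of these 0 were called by limma, beside 4.48% over all probes and 22.1% of the described ones. In limma 2 passed on adjusted p (0.0371 and 0.0422) but not on B. Radial spoke head-like 3 and an axonemal dynein chain also serve the cilia of epithelia, and only the probe described as testicular haploid expressed gene (AJ625516) is named for sperm.

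Histones, replication and chromatin genes gave 5 positive means of 5, with a median of 0.44 that became 1.01 under median centring, and 1 probe called higher, beside 11.5% of the described probes. That probe (AJ624686) is described as DNA ligase I but carries the annotation terms nucleosome and nucleosome assembly. It stood at 1.01, 0.98, 1.23 and 0.93 on replicates 1 to 4 (mean 1.04, SE 0.08, adjusted p = 0.0016). This probe was called in all 18 alternatives, though those with a looser threshold could not end a call. The others were not called: SMC hinge domain containing 1 (AJ516441) at 0.59, histone H2A.Z (AJ516582), a variant of the core histone H2A, at 0.44, histone H3.3B (AJ516600) at 0.42 and the replication helicase subunit MCM5 (AJ516412) at 0.40. Their adjusted p lay between 0.0268 and 0.0976.

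Muscle and cytoskeleton genes had 4 of 12 probes called lower and 0 higher, beside 2.19% called lower over all probes and 10.6% of the described ones, with a median of -0.35, and 9 of the 12 were lower on all 4 arrays. The CG4376 homologue (AJ626040), annotated with actin filament binding and bundle formation, was at -1.03, -0.99, -0.76 and -0.82 (mean -0.90, SE 0.08, adjusted p = 0.00184). An alpha tubulin-type probe (AJ625866) averaged -0.54 (SE 0.06) and beta tubulin (AJ516796) -0.50 (SE 0.07), alpha and beta tubulin being the units of microtubules. A probe described as actin binding protein (AJ626386), whose annotation terms name a transcription factor instead, averaged -0.64 (SE 0.08). Only the CG4376 homologue was called whichever array was left out. The list had 1 member called without replicate 1 or 2 and 2 without replicate 3 or 4. Under median centring 0 were called, the list median was -0.01, and beta tubulin turned to 0.05. Actin (AJ625071), at -0.34, calmodulin (AJ624592), a calcium sensor, at 0.12, and sarcoplasmic calcium-binding protein (AJ623579), at -0.00, were not called. Sarcoplasmic calcium-binding protein was dim in both stages, where the offset added to every intensity makes ratios smaller. Its normalized log2 intensities lay between 6.29 and 6.52 at stage 4 and between 6.31 and 6.53 at stage 3. A motor protein heavy chain (AJ625475), which the annotation links to microtubules, was at -0.44 (adjusted p = 0.0225), without a call.

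Collagens and byssus proteins, of the connective tissue and the attachment threads, had 1 of 5 probes called lower, beside 10.6% of the described probes, and a median of -0.60. This was a collagen alpha-1 chain (AJ626467) at -0.73, -0.51, -0.40 and -0.77 (mean -0.60, SE 0.09, adjusted p = 0.0108), which lost the call without replicate 1, 2 or 4, with plain subtraction, with a dye term and under median centring, where this probe and the list median were at -0.02. A further alpha 1 chain (AJ625457) and foot protein-6 (AJ626112), a byssus adhesive protein, stood at -0.63 and -0.60 and passed on adjusted p but not on B. Precollagen-P (AJ623789), of the thread core, was at 0.19 and precollagen-D (AJ625760), of the same threads, at 0.01.

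Chitinases, glycoside hydrolases that cut chitin, were measured by 6 probes, of which 2 had an unadjusted p under 0.05 in limma. Of the list 0 were called in either direction, beside 4.48% over all probes and 22.1% of the described ones. Their means ran from -0.42 to -0.09 and their median was -0.18, which became 0.06 under median centring. A chitinase (AJ625569) chosen for Q-PCR in the same tissue was at -0.08, -0.15, -0.06 and -0.45 (mean -0.19, adjusted p = 0.284). Of 5 other digestive enzymes, 1 (beside 11.5% of the described probes), the endo-beta-glucanase (AJ623374), which cuts plant and algal glucans, was called higher. It gave 1.17, 0.68, 1.30 and 0.78 on replicates 1 to 4 (mean 0.98, SE 0.12, adjusted p = 0.00604). It lost the call without replicate 1, with no background correction (0.68) and under median centring (1.54). Alpha-amylase (AJ624381), a starch-degrading enzyme, was at 0.01 and a trypsin-like protease (AJ624548) at -0.31, neither called. Alpha-amylase was dim, with normalized log2 intensities between 6.01 and 6.16 at stage 4 and between 5.95 and 6.27 at stage 3. In each stage it was brighter than the empty spots on only 3 arrays. The offset added to every intensity makes ratios of dim probes smaller, so the value cannot show that alpha-amylase stayed unchanged.

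The 6 vdg3 probes, developmentally regulated genes first described in molluscan larvae, had means between -0.20 and 0.36 with a median of -0.04. In limma 0 were called, beside 4.48% over all probes and 22.1% of the described ones. An unadjusted p under 0.05 in limma was found for 1, and 1 was called higher under median centring. Of the 6, AJ623429, AJ624337, AJ625949 and AJ625851 were dim in both stages, with normalized log2 intensities between 6.09 and 6.40 at stage 4 and between 6.07 and 6.59 at stage 3, where the offset of 50 added to every intensity makes ratios smaller. The highest mean (AJ624482) was also the most spread, at -0.17, 0.59, 0.14 and 0.90.

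Among RNA helicases and splicing factors, 1 of 6 probes was called lower (10.6% of the described probes were), hnRNP R (AJ624622), which binds nascent mRNA, at -0.71 (SE 0.09, adjusted p = 0.00604). It lost the call without replicate 1 or 3, with plain subtraction and under median centring, where it was at -0.15. Small nuclear ribonucleoprotein D3 (AJ516404) lay at the other end at 0.43, with -0.06, 0.25, 0.60 and 0.94 on replicates 1 to 4. In the secretory pathway and protein glycosylation list, 0 of 6 were called by limma, 4 had an unadjusted p under 0.05, and means ran from -0.33 for GDP dissociation inhibitor 2 (AJ624260) to 0.68 for keratinocyte associated protein 2 (AJ516541). Over all probes 4.48% were called in either direction, and of the described ones 22.1%. Of 6 immune recognition and defence probes, the transcription factor Rel 1 (AJ623779), of the NF-kappaB family, was called lower at -0.57, -0.53 and -0.66 on replicates 1 to 3 and further down on replicate 4 (mean -0.69, SE 0.10, adjusted p = 0.00979). This was 1 of the 6, beside 10.6% of the described probes. With 3 arrays the call was kept only without replicate 4, and it was lost with plain subtraction and under median centring, where the probe was at -0.17. Metallothionein MT-10b (AJ625847), a metal-binding protein, was positive on all arrays at 0.64, 0.45, 1.25 and 0.82 (mean 0.79). Its adjusted p in limma was 0.0175, and B stayed below 0.

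The 5 called probes that had a description and lay outside the lists were all lower at stage 4. Armadillo repeat containing 3 (AJ516567) was at -0.89, a ras family GTPase annotated with protein export from the nucleus (AJ625027) at -0.78, a tankyrase-type ADP-ribose polymerase (AJ623727), linked in humans to telomere maintenance, at -0.79, a probe named only by a mouse cDNA (AJ516841) at -0.81 and a uromodulin precursor-like sequence (AJ625554) at -0.56. The GTPase and the polymerase kept their calls with any array left out. Armadillo repeat containing 3 was called only without replicate 4, and the mouse cDNA homologue lost its call without replicate 2 or 3. The uromodulin-like probe lost its call with any array left out and with plain subtraction, and under median centring it turned to 0.000996. Median centring also ended the calls of the GTPase (-0.39), the polymerase (-0.23) and the mouse cDNA homologue (-0.28).

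Transcripts without a description made up 40 of the 86 called probes, 20 higher and 20 lower. The higher ones ran from 0.42 to 2.16 with a median of 0.79, and the lower ones from -1.36 to -0.52 with a median of -0.68. Of these, 10 higher and 7 lower probes were outside the study's list and are known by clone name alone. The highest log2 ratio of all probes belonged to an undescribed transcript. AJ625893 (Myt01-016F03), whose annotation holds the terms extracellular region and regulation of vasoconstriction, had normalized log2 intensities of 11.80, 11.40, 10.92 and 11.60 in the stage 4 channels, against 9.35, 9.06, 9.01 and 9.65 in the stage 3 channels. The stages did not overlap. Its log2 ratios of 2.45, 2.34, 1.91 and 1.95 gave a mean of 2.16 (SE 0.11, adjusted p = 0.00106), or 4.48-fold. Of the 18 alternatives, print-tip loess alone ended the call, at 1.68. AJ624929 and AJ623981 followed at 1.27 (SE 0.15) and 1.08 (SE 0.08), with clones Myt01-011H08 and Myt01-008E01 at 1.16 (SE 0.09) and 0.96 (SE 0.07). On the lower side were AJ624887 at -1.36 (SE 0.07), AJ516757 at -1.34 (SE 0.11), AJ626361 at -1.30 (SE 0.16), AJ516858 at -1.09 (SE 0.16) and AJ516421 at -0.98 (SE 0.08). AJ624887 was even across arrays, at -1.45, -1.47, -1.28 and -1.26, whereas AJ516858 had -1.39, -0.50, -1.38 and -1.10. AJ624929 lost its call without replicate 1, AJ626361 without replicate 3 and AJ516858 without replicate 1, 3 or 4, while the other 7 kept theirs.

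**Figure D4:**
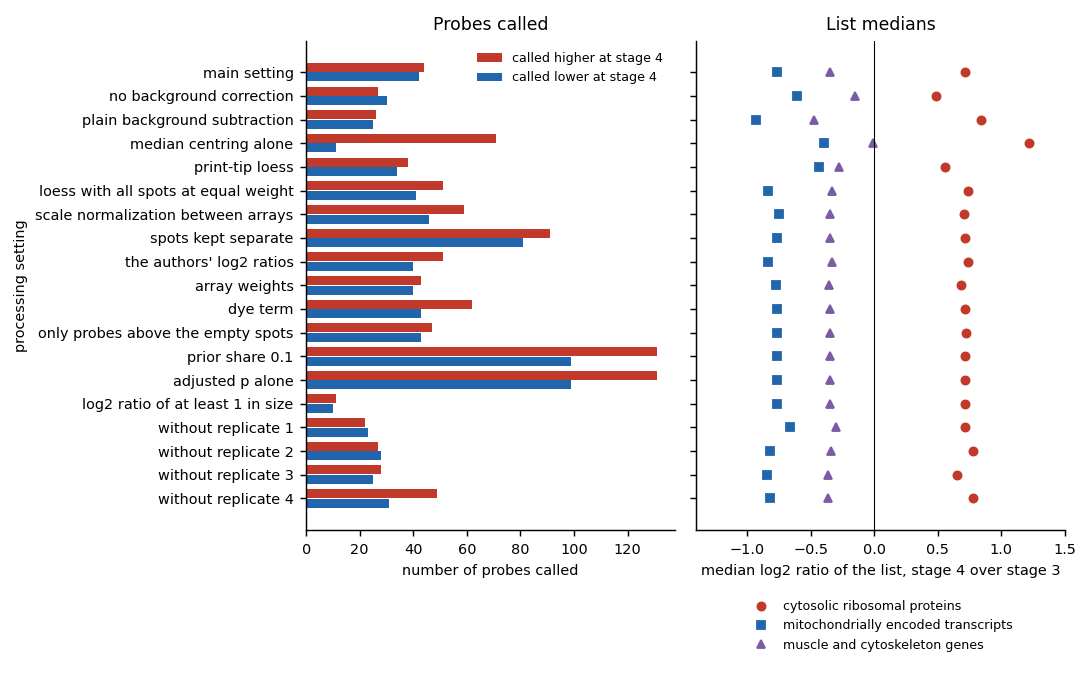
Left, number of probes called higher and lower at stage 4 (x axis) under the main processing setting and 18 alternatives (rows). Right, median log2 ratio (x axis, stage 4 over stage 3) of 3 gene lists under the same settings; the ribosomal median stays between 0.48 and 1.21, the mitochondrial median between -0.93 and -0.39, and the muscle and cytoskeleton median between -0.48 and -0.01.

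As the plot of settings shows, both the counts of called probes and the list medians moved with the processing. Of the 86 called probes, 84 kept their sign in all 18 alternatives, and 8 were called in each: cytochrome oxidase subunit I (AJ623880), NADH dehydrogenase subunit 5 (AJ623584), proteasome beta1 (AJ516664) and AJ624887 on the lower side, and ribosomal protein L15 (AJ624925), AJ624686, AJ623981 and Myt01-011H08 on the higher side. As each called probe had the same sign on all arrays, settings that reweight, rescale or drop arrays, or change the threshold, could not turn it. Only settings of background correction and within-array normalization, the authors' ratios among them, could. Looser thresholds could not end a call, and the setting of a log2 ratio of at least 1 in size kept 21 of the 86.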

How the data were processed

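Probe intensities were deposited by the authors as 1 scanner export per array. Used here were the red and green foreground means and background medians of 4560 spots (3840 probe, 608 empty and 112 alignment spots). The log2 ratios deposited by the authors, made in limma with an offset background subtraction and loess, served as an alternative. Here background was corrected by normexp (offset 50) and loess was run within each array, with control spots at weight 0. Ratios were turned to stage 4 over stage 3, the 2 spots of a probe were averaged, and limma 3.58.1 in R 4.3.3 fitted the 4 arrays with moderated statistics and a prior share of 0.01. Normalized log2 intensities of each channel were rescaled between arrays by Aquantile. The p-values measure the spread between arrays, and no 2 arrays agreed as closely as spot noise alone would allow. Names came from pairing 368 rows of the study's list of changed transcripts, those at hand here, with probes by ratios fitted to the deposited values of all arrays (tolerance 0.005); 15 rows share 1 mitochondrial genome entry, 354 rows hold an EMBL identifier and 1552 probes stayed unnamed. The other 12 arrays of the series served this pairing alone and gave no value here.

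Members and lists were chosen with earlier results of these data known. Probes were named by rule. The first were called probes with a description and the same sign on every array, up to 15 in each direction. Then came the extremes of each list and its called members, up to 6. Also named were the Q-PCR genes, up to 5 called probes a direction without description, and probes sharing a description. A further 20 probes, list members and the uromodulin-like probe, were named after their values were seen. The fit was tested on simulated data. Alternatives covered background correction, normalization, spots, weights, a dye term, filters, thresholds and each array left out.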

Additional observations from a re-analysis of the deposited data

Results flagged for a closer look

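In 3 of 145 results tested for a lone array among the 4, the gap of 1 array to its nearest neighbour exceeded Dixon's critical share of the whole range; chance flags about 1 in 20 groups. Ribosomal protein L13a (AJ624488) had a gap of 0.910 of the range, with replicate 1 low at 0.82 and the others at 1.01, 1.02 and 1.03. Ribosomal protein S20 (AJ624829) had a gap of 0.892, with replicate 2 high at 0.87 and the others at 0.65, 0.63 and 0.64. A vdg3 probe (AJ625851) had a gap of 0.886, with replicate 4 low at -0.18 and the others at 0.00, -0.01 and 0.01. L13a and S20 were called whichever array was left out, and the vdg3 probe was not called.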

How the results depend on the processing

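The 44 probes called higher and 42 called lower became 27 higher (30 lower) without background correction, 26 and 25 with plain subtraction, 71 and 11 under median centring alone, 91 and 81 with spots kept separate, 131 and 99 both with a prior share of 0.1 and on adjusted p alone, and 11 and 10 at a log2 ratio of at least 1 in size. Leaving out 1 array gave 22 to 49 higher and 23 to 31 lower. The other 7 alternatives kept both counts within 1.5 times. Of 2304 values of 128 named probes, 2018 kept direction and side of the threshold, 194 lost the call, 90 gained it and 2 reversed under median centring, beta tubulin (AJ516796) at 0.049 and the uromodulin-like probe (AJ625554) at 0.000996. The median of all probes stayed between -0.05 and -0.01. Besides the lists given above, the secretory median turned to 0.02 under median centring, and the near-zero medians of other digestive enzymes, RNA factors and immune genes changed sign in 9, 4 and 2 alternatives. The causes were not tested. Each log2 ratio already compares the stages within 1 array, and the fit was made on these ratios. Beyond that, no paired analysis was possible because each replicate number has 1 array, which both stages share. A slide or scan block was not run, as the files name no such batch. In every channel, 1275 probes were above the empty spots, and 60 were above them on no array in either stage. Probes not above the empty spots in 1 or more channels have less certain ratios.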
